A study of Mus musculus with 9 samples.

Results

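ATF4, CHOP and the stress factors that act with them were followed through 10 mouse genes, taken by symbol from the gene column of the deposited result tables and joined by Ensembl ID to the count files, which list 54838 genes. They are 6 basic leucine zipper (bZIP) transcription factors (Atf4, Atf3, Atf5, Ddit3, Cebpb and Cebpg), the cofactors Trib3 and Nupr1, the secreted ligand Gdf15 and the receptor Vldlr. All 10 had counts in every library and passed the filter on low counts in both tests made. The list came from known biology and not from measured values, but it was drawn up with results of these data known.

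ATF4 is the factor made when stress kinases phosphorylate the translation factor eIF2α: general protein synthesis falls while the Atf4 mRNA, which carries short upstream reading frames, is translated more. ATF4 binds DNA as a dimer with C/EBP proteins, among them C/EBPγ and C/EBPβ, at composite C/EBP-ATF elements, and its known targets include Ddit3, which encodes CHOP, as well as Atf3, Atf5, Trib3 and Nupr1. CHOP in turn acts in dimers with other bZIP proteins, and the TRIB3 protein binds ATF4 and CHOP and limits their activity. mRNA levels show nothing of the translational step.

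The study exposed cells to hypochlorous acid (HOCl), the oxidant that myeloperoxidase of neutrophils produces. B16F10 is a melanoma line derived from C57BL/6 mice, here plated and grown for 4 days; the other cells were CD8+ T cells taken with an isolation kit from spleens of adult C57BL/6 mice. Cells stood for 5 h in culture medium that held either no HOCl or 600 µM of it, and total RNA was then column-purified and sequenced on an Illumina platform. There were 3 untreated and 3 HOCl libraries of B16F10, 2 untreated T cell libraries and 1 HOCl T cell library. The labels name no genetic change in any group. They do not say whether the libraries of a group stem from different cultures or animals, so the p-values reflect library-to-library spread that could be technical.

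B16F10 libraries held 45.9 to 61.3 M gene counts, the untreated T cell libraries 49.9 and 52.1 M, and the T cell HOCl library 12.8 M. Levels are counts per M gene counts of the library (CPM). The 10 melanocyte markers summed to 24737 to 25802 CPM in B16F10, with none at 0, and to 104 and 26.0 CPM in untreated T cells. The 12 T cell markers summed to 7699 and 6310 CPM in untreated T cells, to between 7.71 and 9.06 CPM in 5 of the B16F10 libraries, and to 54.5 CPM in B16F10 HOCl replicate 3. That replicate therefore stands apart by 0.777% of the untreated T cell level, and results are also given without it. The T cell HOCl library goes against its label: its melanocyte markers summed to 6928 CPM, 27.0% of untreated B16F10, its T cell markers to 897 CPM, 12.8% of untreated T cells, and 37.4% of its counts were mitochondrially encoded, against 1.55 and 2.11% in untreated T cells. It is called the library labelled T cell HOCl for that reason. In bulk RNA, fewer cells of a type and less RNA per cell cannot be told apart.

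Because ATF4 and its C/EBP partners bind at composite elements, the promoters of the 10 genes were first searched for such letters. RefSeq windows on GRCm38.p6, running from 250 bases before to 50 bases after a gene's start, were found for all 10 (13 windows, since 3 genes have an alternative start). The composite element was searched as TGATGNAA on both strands, where N is any base. It was present in a window of 4 of the 10 genes, Atf3, Trib3, Nupr1 and Vldlr, against 2.77% of the 10686 tested genes with a window. Those 4 stretches are shown 5′ to 3′ on the gene's own strand, where each match reads TTNCATCA, the reverse complement; capitals mark it.
Atf3: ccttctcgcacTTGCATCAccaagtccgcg
Trib3: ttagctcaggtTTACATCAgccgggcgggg
Nupr1: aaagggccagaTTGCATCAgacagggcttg
Vldlr: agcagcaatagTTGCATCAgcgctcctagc

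The Atf3 stretch is chr1:191183425-191183454 on the minus strand, in an intron of the GENCODE M21 gene, and its match begins 110 bases before a RefSeq start. That of Trib3 is chr2:152344028-152344057, also minus, with a match that begins 15 bases after the RefSeq start. Only the last 5 of its 30 bases are in the annotated exon, so the match lies before the GENCODE start at 152344032. Nupr1 has its stretch at chr7:126625562-126625591, minus strand, wholly within an annotated Nupr1 exon and 110 bases before the RefSeq start. For Vldlr the stretch is chr19:27216809-27216838 on the plus strand, in an annotated Vldlr exon and 200 bases before the downstream of its starts. The cyclic AMP response element TGACGTCA was in none of the 10 genes' windows and in 3.47% of tested genes. The ER stress element, CCAAT and CCACG with 9 bases between them, was likewise in none, against 0.197%. The core of the antioxidant element, TGACNNNGC, was in the window of Cebpb alone, against 16.8%. The elements searched do not overlap in these windows. A match is a run of letters and was not tested as a site, and no match says only that these letters are not in the window.

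In B16F10, transcripts of all 10 genes were higher after HOCl. The largest changes were in Trib3 (2.36-fold) and Atf3 (2.13-fold), the smallest in Cebpg (1.37-fold) and Atf5 (1.21-fold). All 10 passed an adjusted p threshold of 0.05 (edgeR, quasi-likelihood F test, p-values adjusted by Benjamini-Hochberg over 16082 genes), a test in which 14.7% of all genes were called higher and 13.5% lower. CPM ranges of untreated and HOCl libraries did not overlap for any of the 10, with HOCl above; this held for 25.2% of tested genes. The median log2 fold change was 0.81 over the 10 genes and -0.01 over all genes tested. All 10 were also called with any 1 of the 6 libraries left out, B16F10 HOCl replicate 3 included. None was called by edgeR when the T cell libraries shared the fit and its estimate of the spread, where 6 of the 10 had an unadjusted p under 0.05. The log2 fold changes then ran from 0.28 to 1.24 as before, and the lowest edgeR adjusted p was 0.0518, for Gdf15 with 8 libraries; DESeq2 on the 6 libraries called all 10.

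**Figure D1:**
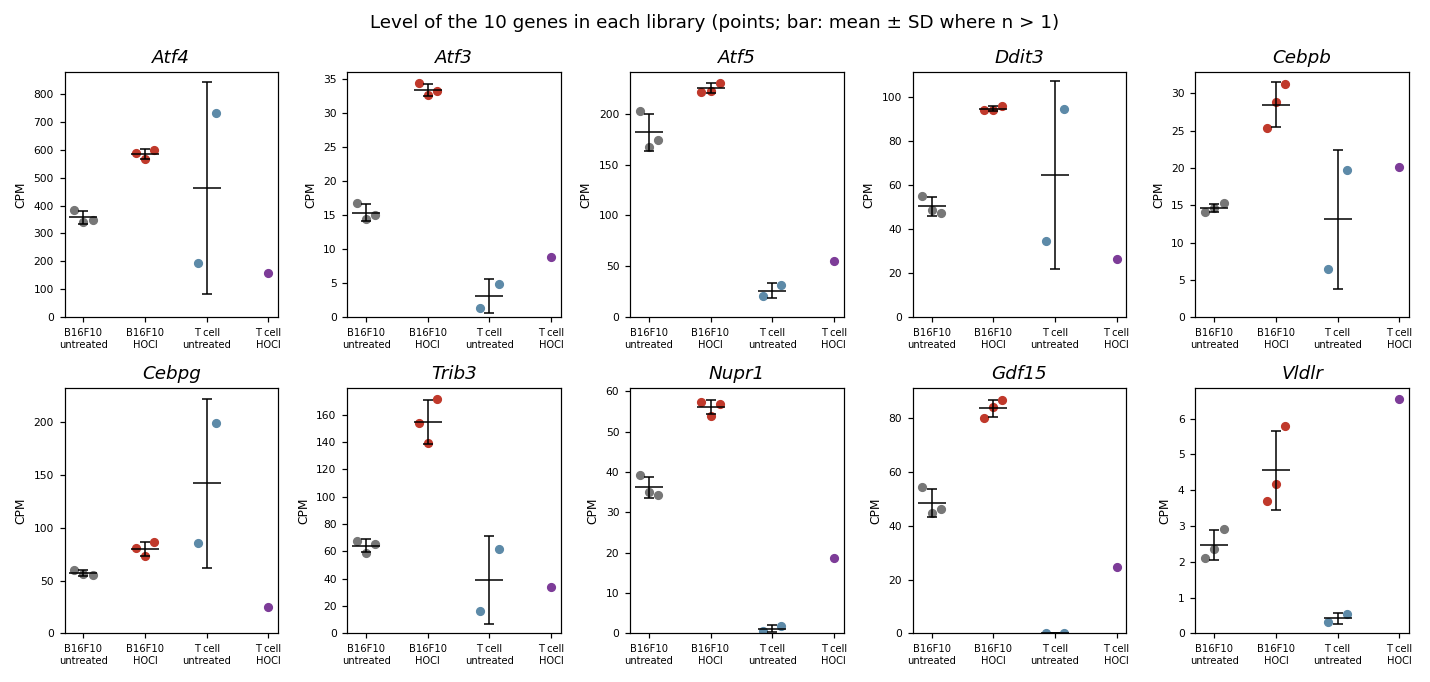
CPM of each of the 10 genes (vertical axis, a scale of its own per gene, starting at 0) in every library of the 4 groups (points); bars are the mean ± SD where a group has over 1 library. In every panel the 3 B16F10 HOCl points lie above the 3 untreated ones, and the untreated T cell points lie far apart for Atf4 (194 and 729.8 CPM).

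Among the bZIP factors, Atf4 itself stood at 385, 342 and 347 CPM in the 3 untreated B16F10 libraries and at 587, 567 and 599 CPM in the 3 HOCl libraries. Every HOCl library was above every untreated one, with a gap of 182 CPM between the groups. The group means were 358 ± 23.0 and 584 ± 16.4 CPM (SD, n = 3 each), a log2 fold change of 0.68 ± 0.05 (SE; edgeR quasi-likelihood, Benjamini-Hochberg adjusted p = 7.53e-06). Atf4 lies on chromosome 15 (80255184 to 80257541, plus strand, GRCm38), and its gain of 226 CPM was the largest of the 10 genes.

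Ddit3 encodes CHOP, a C/EBP family protein that dimerises with its relatives and drives part of the late stress programme. It stood at 55.1, 48.4 and 47.3 CPM untreated and at 94.0, 94.0 and 96.0 CPM with HOCl. The treated libraries lay close together, well above all untreated ones. Means were 50.3 ± 4.21 and 94.7 ± 1.16 CPM (SD, n = 3), and the log2 fold change was 0.88 ± 0.06 (edgeR quasi-likelihood, Benjamini-Hochberg adjusted p = 3.77e-06). A second gene ID of the same name had 0 counts in every library. Exons of Ddit3 share 68 bases with those of Mars on the other strand, and as no source used here gives the strand setting, reads there cannot be told apart.

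Atf3, an immediate stress factor that often acts as a repressor, stood at 16.7, 14.4 and 14.9 CPM untreated and at 34.3, 32.7 and 33.1 CPM with HOCl. Every treated library was above every untreated one, with a gap of 15.9 CPM. It rose from a mean of 15.3 ± 1.24 to 33.4 ± 0.854 CPM (SD, n = 3), a log2 fold change of 1.09 ± 0.07 (edgeR quasi-likelihood, Benjamini-Hochberg adjusted p = 2.96e-06), rank 210 among the rises of 16082 genes.

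Atf5, which is translated like Atf4 through upstream reading frames and is tied to the mitochondrial stress response, was the second most abundant of the 10 per length. Its CPM was 202, 168 and 175 untreated and 222, 222 and 231 with HOCl. The groups did not overlap, but untreated replicate 1 came near the treated libraries. The means of 182 ± 18.4 and 225 ± 4.94 CPM (SD, n = 3) gave a log2 fold change of 0.28 ± 0.07 with a 95% interval of 0.14 to 0.42 (edgeR quasi-likelihood, Benjamini-Hochberg adjusted p = 0.00712). With 1 library left out in turn the change ran from 0.23 to 0.37. Its exons share 82 bases, 4.11% of their length, with both Nup62 and Il4i1 on the opposite strand.

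Cebpb encodes C/EBPβ, a partner of ATF4 and CHOP that is also active in inflammation and differentiation. Its values were 14.1, 14.6 and 15.3 CPM untreated against 25.3, 28.8 and 31.3 CPM with HOCl. The treated libraries were spread more widely, yet all stood above the untreated ones. The log2 fold change was 0.93 ± 0.08, from 14.6 ± 0.593 to 28.5 ± 3.01 CPM (SD, n = 3; edgeR quasi-likelihood, Benjamini-Hochberg adjusted p = 1.48e-05). Cebpb, on chromosome 2 (167688915 to 167690418), has 20.7% of its exon length in common with Tmem189 on the opposite strand, so part of its count is uncertain.

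Cebpg encodes C/EBPγ, a short C/EBP protein without an activation domain of its own that pairs with ATF4. Untreated libraries stood at 60.2, 56.0 and 55.2 CPM and HOCl libraries at 80.8, 72.8 and 86.1 CPM. The groups were apart by 12.6 CPM, with HOCl replicate 2 the lowest of the treated libraries. From 57.1 ± 2.7 to 79.9 ± 6.69 CPM (SD, n = 3), its log2 fold change was 0.46 ± 0.07 (edgeR quasi-likelihood, Benjamini-Hochberg adjusted p = 3.94e-04).

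Of the cofactors, Trib3, a pseudokinase that binds ATF4, CHOP and the kinase AKT, changed most. It was at 67.9, 59.2 and 65.7 CPM untreated and at 154, 139 and 171 CPM with HOCl. Even the lowest treated library, replicate 2, held 71.2 CPM more than the highest untreated one. The rise from 64.3 ± 4.53 to 154.8 ± 16.1 CPM (SD, n = 3) was a log2 fold change of 1.24 ± 0.08 with a 95% interval of 1.07 to 1.41 (edgeR quasi-likelihood, Benjamini-Hochberg adjusted p = 1.82e-06). It ranked 149 among the rises of all genes tested.

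Nupr1 encodes a small disordered chromatin protein induced by many stresses. It stood at 39.3, 35.1 and 34.4 CPM untreated and at 57.4, 54.0 and 57.0 CPM with HOCl. Both groups were tight and separate. Means of 36.3 ± 2.63 and 56.1 ± 1.83 CPM (SD, n = 3) gave a log2 fold change of 0.60 ± 0.06 (edgeR quasi-likelihood, Benjamini-Hochberg adjusted p = 5.06e-05).

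Gdf15, the ligand among the 10, encodes a TGF-β family hormone released by stressed cells that acts in the brain stem through the receptor GFRAL. It was at 54.3, 44.8 and 46.1 CPM untreated and at 80.2, 84.1 and 86.6 CPM with HOCl. The treated libraries were all above the untreated ones, among which replicate 1 was the highest. It rose from 48.4 ± 5.12 to 83.6 ± 3.21 CPM (SD, n = 3), a log2 fold change of 0.76 ± 0.07 (edgeR quasi-likelihood, Benjamini-Hochberg adjusted p = 2.36e-05).

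Vldlr, which encodes the very low density lipoprotein receptor, also a receptor of reelin, was by far the lowest of the 10. It stood at 2.10, 2.37 and 2.92 CPM untreated and at 3.69, 4.18 and 5.78 CPM with HOCl. The groups were 0.775 CPM apart, and HOCl replicate 3 was well above the other treated libraries. From 2.46 ± 0.416 to 4.55 ± 1.09 CPM (SD, n = 3), the log2 fold change was 0.86 ± 0.19 with a 95% interval of 0.44 to 1.28 (edgeR quasi-likelihood, Benjamini-Hochberg adjusted p = 0.00568). Without HOCl replicate 3 it was 0.66, the lowest value over the 6 libraries left out in turn.

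**Figure D2:**
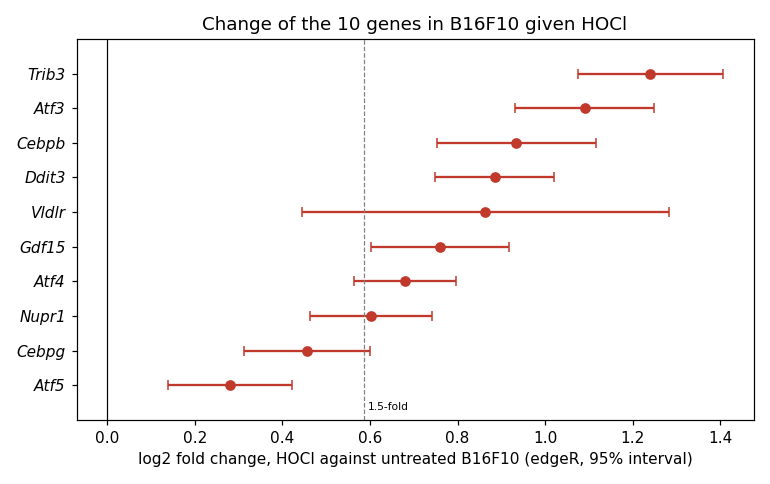
Log2 fold change of each gene in B16F10, HOCl against untreated (horizontal axis; edgeR estimate with its 95% interval), in order of size; the dashed line is a 1.5-fold change. Trib3 is at 1.24 and Atf5 at 0.28, all intervals lie above 0, and those of Trib3, Atf3, Cebpb, Ddit3 and Gdf15 lie wholly to the right of the dashed line.

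Tested against a 1.5-fold change instead of no change, with edgeR's glmTreat, 4 of the 10 stayed under an adjusted p of 0.05: Trib3, Atf3, Ddit3 and Cebpb. Gdf15 came next, at an edgeR adjusted p of 0.353. The authors' deposited table, whose groups are named only by number, lists log2 fold changes of 1.19 for Trib3, 1.03 for Atf3, 0.67 for Atf4 and 0.63 for Vldlr, each somewhat lower than or close to the value here. For the other 6 genes its values run from 0.27 for Atf5 to 0.87 for Cebpb.

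Within the groups, the deviations of the 10 genes from the group mean were counted library by library. Untreated replicate 1 was above its group's mean log2 CPM for 8 of the 10, with a median deviation of 0.11, and untreated replicate 2 was above it for none. Among the treated libraries, replicate 3 was above the group's mean for 9 of the 10, by a median of 0.04. Those genes share each library's scaling and depth. The share of all tested genes that lean the same way was not taken, so nothing particular to the 10 can be read here. Over all genes, untreated replicate 1 also stood furthest from the other untreated libraries. Its chi-square per degree of freedom was 25.9 and 23.6 against replicates 2 and 3, which gave 4.74 between them.

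Per kilobase of annotated exon, Atf4 led in untreated B16F10 with 152 ± 9.77 CPM per kb (SD, n = 3), followed by Atf5 with 91.1 ± 9.21. A middle tier held Trib3 at 30.2, Ddit3 at 29.3 and Gdf15 at 26.1 CPM per kb, where neighbours overlapped over the libraries. Nupr1 followed at 14.4, then Cebpg at 10.2 and Cebpb at 9.74, which overlapped, then Atf3 at 7.13 and Vldlr at 0.245 CPM per kb. With HOCl the order began as before, with Atf4 at 248, Atf5 at 113 and Trib3 at 72.8 CPM per kb, and no neighbours overlapped down to Atf3. Trib3 was then clear of Ddit3 at 55.3, while Cebpg moved from the seventh to the ninth place with 14.2 CPM per kb, a level that overlapped that of Atf3 at 15.5. Cebpb stood at 18.9 CPM per kb, above Cebpg in treated cells by this measure. Before dividing by length Cebpg was the higher, at 79.9 against 28.5 CPM. Their order thus depends on the annotated exon lengths, 5621 bases for Cebpg and 1504 for Cebpb.

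Atf4 made up 50.2 to 51.1% of the summed level per kilobase of the 6 bZIP genes in untreated B16F10 and 52.9 to 53.8% with HOCl. The ratio of Ddit3 to Atf4 per kilobase was 0.188 to 0.197 untreated and 0.220 to 0.228 with HOCl. Neither range overlapped between the groups.

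The genes around the 10 were taken from lists by role, and each median is of log2 fold changes, beside -0.01 over all genes. Counts called stand beside 14.7% of all tested genes called higher and 13.5% called lower. Of 38 genes tested on the list of other bZIP factors, 13 were higher and 5 lower, and their median was 0.12. Among the 13 is Cebpz, at 0.21 ± 0.05, which has a C/EBP name but is not a bZIP factor. The largest rises were in Crebl2, a CREB-like factor, at 0.67 ± 0.07 and Cebpd, a C/EBP factor of acute responses, at 0.66 ± 0.12 (edgeR quasi-likelihood, Benjamini-Hochberg adjusted p = 2.73e-05 and 0.00214). The largest falls were in the immediate early AP-1 genes Fosb, at -0.87 ± 0.19, and Fos, at -0.74 ± 0.11. Fos stood at 13.6, 16.7 and 12.6 CPM untreated and at 8.37, 8.77 and 9.06 CPM with HOCl, without overlap. The lower count was 3 without HOCl replicate 2 or without HOCl replicate 3.

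Upstream, the eIF2 branch (kinases, phosphatase subunits and translation factors) had 5 genes higher and 1 lower of 18 tested, with a median of 0.07. Ppp1r15a, which encodes the GADD34 subunit that directs the phosphatase to eIF2α, went from 25.8 ± 2.12 to 42.8 ± 1.95 CPM (SD, n = 3), a log2 fold change of 0.70 ± 0.07 (edgeR quasi-likelihood, Benjamini-Hochberg adjusted p = 3.53e-05). Impact, an inhibitor of the kinase GCN2, rose by 0.29 ± 0.07. Eif2ak2, which encodes the kinase PKR, went the other way by -0.60 ± 0.05, from 72.1 ± 1.61 to 48.4 ± 1.77 CPM (SD, n = 3). The higher count was 3 with any 1 HOCl library left out and 8 without TMM scaling, and without untreated replicate 1 the lower count was 3.

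Downstream, 27 of 39 tested ATF4 target genes outside the 10 were higher, with a median of 0.24. None was lower in edgeR's test, where 2 had an unadjusted p under 0.05, and DESeq2 called 1 lower. Chac1, which encodes an enzyme that cleaves glutathione, had the largest change at 1.48 ± 0.06, and Slc7a11, which encodes the cystine importer subunit xCT, followed at 1.41 ± 0.10 (edgeR quasi-likelihood, Benjamini-Hochberg adjusted p = 6.19e-08 and 1.29e-05). Slc7a11 stood at 126, 172 and 168 CPM untreated and at 407, 409 and 450 CPM with HOCl, far apart. The higher count ran from 20 to 32 with 1 library left out, and the lower count was 2 without untreated replicate 1 and 1 without untreated replicate 2.

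Of 8 CHOP target genes, 4 were higher and 1 lower, with a median of 0.13. Ero1l, an oxidase of the endoplasmic reticulum, rose by 0.81 ± 0.06 and Ppp1r15a is also on this list. Car6, a secreted carbonic anhydrase, fell by -0.28 ± 0.05. Without untreated replicate 1 the lower count was 2.

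Regulators of ATF4 and CHOP activity and stability had 5 higher and 1 lower of 16, with a median of 0.07. The largest rises were in the acetyltransferase coactivators Ep300, by 0.43 ± 0.13, and Crebbp, by 0.39 ± 0.08, while Rps6ka3, which encodes the kinase RSK2, was lower by -0.26 ± 0.07. The higher count was 2 without HOCl replicate 1 or without HOCl replicate 3 and 3 without HOCl replicate 2. No gene was lower without untreated replicate 2, HOCl replicate 1 or HOCl replicate 2, and DESeq2 called 2 lower.

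Of 9 kinases and other partners of TRIB3, 1 was higher and 1 lower, with a median of -0.02. These counts are close to the shares over all genes, 14.7% higher and 13.5% lower. Sqstm1, which encodes the autophagy receptor p62, was the gene that rose, by 0.47 ± 0.05, and Map2k1, which encodes MEK1, the one that fell, by -0.14 ± 0.05. The higher count was 2 without untreated replicate 1 or without TMM. No gene was lower without TMM, or without any 1 of 5 libraries, all but untreated replicate 1.

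For GDF15, its receptor genes Gfral and Ret and the convertases Pcsk5 and Pcsk6 did not pass the filter on low counts. Of the genes that did, Furin, a protease that matures TGF-β family proteins, rose by 0.37 ± 0.05, and Mmp14, a membrane metalloprotease, fell by -0.19 ± 0.04. The call of Mmp14 was lost without HOCl replicate 2.

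Among 11 tested genes of the VLDLR family and its ligands and regulators, 1 was higher and 2 were lower, with a median of -0.06. These counts too are close to the shares over all genes. Mylip, which encodes the ligase IDOL that degrades VLDLR and the LDL receptor, rose by 0.29 ± 0.08. Lrp1, a large receptor of the family, was lower by -0.27 ± 0.05, from 183 ± 10.0 to 155 ± 6.83 CPM (SD, n = 3), and Lrp5, a Wnt coreceptor of the same family, by -0.22 ± 0.06. No gene was higher without HOCl replicate 1 or HOCl replicate 3. The lower count was 4 without untreated replicate 1 and 1 without untreated replicate 3, HOCl replicate 1 or HOCl replicate 2.

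In the other arms of the unfolded protein response, falls outnumbered rises. Of 21 tested genes of the IRE1 and ATF6 arms, 4 were higher and 11 lower, with a median of -0.22. The sensors Ern1 and Atf6 were higher by 0.62 ± 0.09 and 0.23 ± 0.06, and the chaperone cofactors Sdf2l1 and Manf were lower by -0.55 ± 0.07 and -0.44 ± 0.06 (edgeR quasi-likelihood, Benjamini-Hochberg adjusted p = 2.88e-04, 0.0126, 1.10e-04 and 1.67e-04). The higher count was 1 without HOCl replicate 2 or HOCl replicate 3.

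**Figure D3:**
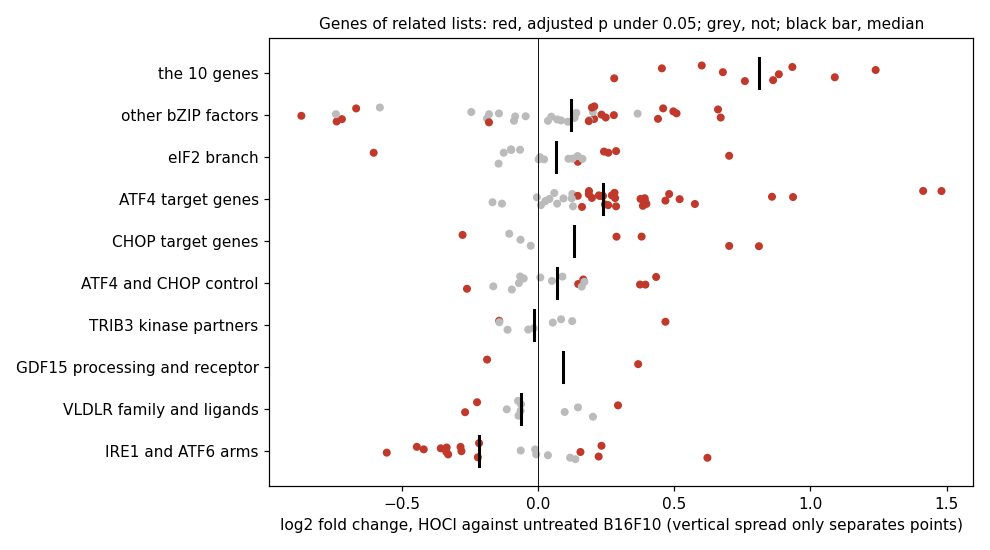
Log2 fold change in B16F10 (horizontal axis) of each tested gene of the lists named on the vertical axis; red points passed an adjusted p of 0.05, grey did not, and the black bar is the list's median. The median is 0.81 for the 10 genes, 0.24 for ATF4 targets and -0.22 for the IRE1 and ATF6 arms.

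Cell type markers were counted in the same test. Of 10 melanocyte markers, Sox10 was higher by 0.28 ± 0.05 and 4 were lower, the largest falls being -0.68 ± 0.05 for Mc1r and -0.25 ± 0.07 for Tyr; 1 was lower without HOCl replicate 2 or HOCl replicate 3. No T cell marker (6 tested), B cell marker (3) or macrophage and neutrophil marker (2) was called in the main edgeR test on all 6 libraries; at an unadjusted p under 0.05 there were 2, 0 and 0, and DESeq2 called 1, 0 and 0. For T cell markers, edgeR on all 6 libraries called 4 without a filter on low counts and 2 with the replicate number as a block. T cell markers also gave calls with a library left out, 4 of them without HOCl replicate 2 and 1 each without HOCl replicate 1 or untreated replicate 3; 1 macrophage and neutrophil marker was called without untreated replicate 2. Col1a1 was the only fibroblast or endothelial marker called, lower by -0.64 ± 0.11.

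The genes most like the 10 in profile over the 6 B16F10 libraries, by Pearson's r with the mean standardised log2 CPM of the 10 among 12620 candidates, were Xpc and Fitm2 (both 0.998), Nup62 and C330018D20Rik (both 0.997) and Trim32 (0.996). The points share the 2 groups and so does every gene that changed. Nup62 also shares exon bases with Atf5.

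The second question was how the 10 genes stand in the other cell type without treatment. Against untreated T cells, untreated B16F10 had more Gdf15, Nupr1, Atf5, Vldlr and Atf3 and less Cebpg. Thus 5 were called higher and 1 lower (edgeR, quasi-likelihood F test, Benjamini-Hochberg over 18352 genes), a test in which 35.8% of genes were called higher and 35.4% lower. Cell type, preparation and time in culture cannot be told apart here. Leaving out the scaling by TMM moved the median of all genes by 0.24 on the log2 scale.

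Gdf15 was very low in untreated T cells, at 0.160 and 0.230 CPM, and the log2 difference was 7.68 ± 0.30 (edgeR quasi-likelihood, Benjamini-Hochberg adjusted p = 1.33e-05). Nupr1 stood at 0.521 and 1.80 CPM in T cells, a difference of 4.68 ± 0.58 (adjusted p = 7.90e-04 in the same test). Atf5 was at 20.8 and 31.3 CPM and differed by 2.54 ± 0.27 (edgeR adjusted p = 4.03e-04). For these genes the lowest B16F10 library was far above both T cell libraries.

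Vldlr, at 0.320 and 0.538 CPM in untreated T cells, was higher in B16F10 by 2.25 ± 0.44 (edgeR quasi-likelihood, Benjamini-Hochberg adjusted p = 0.00473). Atf3, at 1.30 and 4.88 CPM, differed by 2.03 ± 0.59 (edgeR adjusted p = 0.0218), a call lost when any 1 untreated B16F10 library was left out (edgeR adjusted p from 0.0577 to 0.0955). Cebpg was the gene with more transcript in T cells, at 85.3 and 198 CPM, a difference of -1.59 ± 0.37 (edgeR adjusted p = 0.00993).

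The remaining 4 genes did not pass the threshold, and their T cell libraries lay on either side of the B16F10 range or, for Trib3, below and within it. Atf4 was at 194 and 729.8 CPM, with a log2 difference of -0.65 and a 95% interval of -1.97 to 0.67. Ddit3 was at 34.5 and 94.6 CPM, with -0.64 (-1.70 to 0.42). Trib3 was at 16.3 and 61.6 CPM, with 0.44 (-0.91 to 1.78), and Cebpb at 6.53 and 19.7 CPM, with -0.12 (-1.29 to 1.04). No direction can be read from these intervals. With T cell replicate 1 left out 4 genes were called lower, and with T cell replicate 2 left out 9 were called higher. In those fits the lone T cell library is assumed to vary like the 3 B16F10 libraries, so the calls depend on which T cell library was kept.

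The 2 untreated T cell libraries thus differed from each other in these genes, and by more than most genes did. Of the 8 members with over 20 counts in each library of the pair, all 8 were higher in replicate 2. This held for 39.5% of the 13337 genes with such counts. At least 2-fold higher were 7 of the 8, against 6.26% of those genes. The ratio of replicate 2 to replicate 1 was 3.77 for Trib3, 3.75 for Atf4, 3.75 for Atf3 and 3.47 for Nupr1, then 3.02 for Cebpb, 2.74 for Ddit3, 2.33 for Cebpg and 1.5 for Atf5. It was above that of Trib3 for 0.540% of genes. The median ratio was 0.867 over all genes, and 34 of 39 ATF4 target genes were higher in replicate 2, with a median of 1.73. Replicate 2 also had 1.68 as the median ratio of its 6 B cell markers, which summed to 2361 CPM against 1262, 0.236 as that of 6 melanocyte markers, 0.940 as that of 12 T cell markers and 1.30 as that of 13 mitochondrial transcripts; their part in the difference was not tested. With 1 library on each side there is no test.

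**Figure D4:**
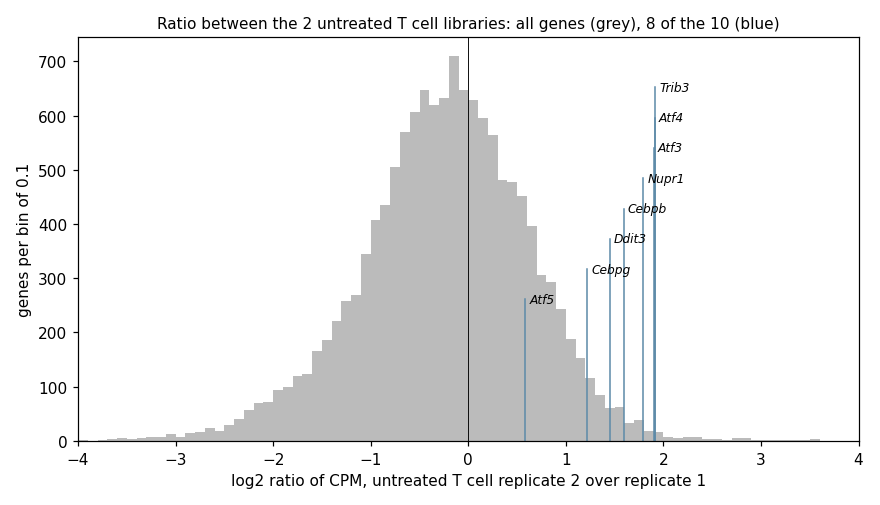
Histogram of the log2 ratio of CPM, untreated T cell replicate 2 over replicate 1 (horizontal axis), for 13337 genes (vertical axis, genes per bin of 0.1); blue lines mark 8 of the 10 genes, and their height only separates the names. All 8 lie to the right of 0, from a ratio of 1.5 for Atf5 to 3.77 for Trib3.

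In the order per kilobase, untreated T cells also had Atf4 first, at 196 ± 161 CPM per kb (SD, n = 2), clear of the rest in both libraries. Ddit3, Cebpg, Trib3, Atf5 and Cebpb followed, from 37.7 down to 8.72 CPM per kb, each overlapping its neighbour. Atf3 at 1.43 and Nupr1 at 0.462 overlapped too, and Gdf15 at 0.105 and Vldlr at 0.0426 CPM per kb came last.

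The library labelled T cell HOCl is a single library, so its values have no test and their 95% Poisson intervals cover counting error only. Atf4 stood at 157 CPM (149.8 to 164), Ddit3 at 26.3 (23.6 to 29.3) and Cebpg at 24.9 CPM (22.3 to 27.8). These 3 were below both untreated T cell libraries, at 0.339, 0.407 and 0.176 times their mean. As mitochondrial transcripts took 37.4% of this library's counts, CPM was also taken without them: Atf4 was then at 250.3 and Ddit3 at 42.0 CPM, both between the untreated libraries (198 and 746, 35.1 and 96.6 CPM), while Cebpg at 39.8 CPM was still below both (86.6 and 203 CPM).

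Gdf15 was at 24.6 CPM (22.0 to 27.5) in that library, Nupr1 at 18.7 (16.4 to 21.2) and Vldlr at 6.54 CPM (5.22 to 8.09). All were above both untreated T cell libraries, as were Atf3 at 8.80 (7.25 to 10.6) and Atf5 at 55.3 CPM (51.3 to 59.6). Cebpb, at 20.2 CPM (17.8 to 22.8), was not apart from untreated T cell replicate 2 at 19.7 CPM by counting error alone. Trib3, at 33.6 CPM (30.5 to 37.0), was between the untreated T cell libraries. Set against untreated B16F10, 8 of the 10 genes were at 30.5 to 57.3% of its level, Gdf15 at 50.8% and Nupr1 at 51.5%, in a library whose melanocyte markers were at 27.0% of it. Cebpb at 138% and Vldlr at 265% were above untreated B16F10. That library had counts in 44225 genes at 12.8 M gene counts, against 22855 to 25907 genes in the other libraries. The part of this wider detection and of the melanocyte transcripts in these values was not tested.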

How the data were processed

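RNA of 9 mouse libraries was measured; the values the authors deposited are raw counts of reads per gene. Tools and build, per the submitters' processing notes, were STAR 2.7.1a, featureCounts 1.6.0, FastQC 0.11.8, DESeq2 1.22.2 and mm10. Annotation release, strand setting, filters and handling of multiply mapped reads: not given in the sources used here. The authors' deposited B16F10 table gave log2 fold changes and adjusted p-values, of which the former are set beside the results. Groups came from sample titles. Positions and exon lengths are GENCODE M21 (GRCm38), which holds 54809 of the 54838 gene IDs; promoter windows are RefSeq's on GRCm38.p6.

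Tests used edgeR 4.0.16 in R 4.3.3 (filterByExpr by group, TMM, robust quasi-likelihood F test, Benjamini-Hochberg over all genes tested, threshold 0.05), on 6 B16F10 libraries and on 5 untreated libraries. SE is the log2 fold change over the square root of F. The code was tested on simulated data. Intervals of log2 fold changes were built from edgeR's estimate, the SE and a quantile of Student's t, and include the spread between libraries. Poisson intervals of the library labelled T cell HOCl cover counting error only. Replicates differed beyond counting noise (chi-square per degree of freedom of at least 3.91), so each was counted once. In B16F10 that value was 25.9 and 23.6 for untreated replicate 1 against untreated replicates 2 and 3, and 4.74 between replicates 2 and 3. Among B16F10 HOCl libraries it reached 7.57, and between the untreated T cell libraries it was 447. Alternatives were DESeq2's size factors, no TMM, unfiltered genes, a stricter filter (1 CPM, mean of 50 counts), DESeq2 1.42.0, glmTreat against 1.5-fold, the replicate number as a block, 8 or 9 libraries in 1 fit, each library left out, and CPM without mitochondrial genes.

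Named are the 10 genes, the 5 genes most alike in profile, and from each list up to 2 per direction past the threshold. The latter had a mean of 50 or more counts in the higher group. Il4i1, Tmem189 and Mars are named for their overlaps, and Cebpz because it is not a bZIP factor. The members and lists were chosen with earlier results of these data known. A listed gene that is not reported here was left out of its list.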

Additional observations from a re-analysis of the deposited data

Results flagged for a closer look

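For 3 genes the CPM of the HOCl libraries lay on opposite sides of the untreated ones in B16F10 and in the samples labelled T cell: they were higher in all 3 B16F10 HOCl libraries than in any untreated one and lower in the single library labelled T cell HOCl than in both untreated T cell libraries. The CPM of that library over the mean of the untreated T cell libraries was 0.339 for Atf4, 0.407 for Ddit3 and 0.176 for Cebpg. The difference between the cell types was not tested. With mitochondrially encoded genes left out of the total, Atf4 and Ddit3 lay between the untreated T cell libraries, at 250.3 and 42.0 CPM, and Cebpg at 39.8 CPM stayed below both. That library also carried 27.0% of the melanocyte marker level of untreated B16F10 and 12.8% of the T cell marker level of untreated T cells; their part was not tested, and no direction for HOCl in T cells can be read from it.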

How the results depend on the processing

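In B16F10 all 10 genes kept their direction under every alternative run, and all 10 were called higher with DESeq2's size factors, without TMM, without a filter, with the stricter filter, in DESeq2 and with any 1 library left out. With glmTreat against 1.5-fold, 28 genes were called higher and 45 lower, with 4 of the 10. With all 9 libraries in 1 fit the counts were 11 higher and 26 lower, with 0 of the 10, and with 8 libraries 29 higher and 38 lower, also with 0 of the 10; the spread was then estimated with the T cell libraries included. ATF4 targets called higher were 4, 2 and 1 in these fits, against 27. With 1 library left out, genes called lower ran from 1410 (without HOCl replicate 3) to 2634 and genes called higher from 1605 to 2819. With the replicate number as a block, 2726 genes were higher and 2567 lower, with 10 of the 10. Same-numbered libraries deviated with r of 0.04, -0.003 and 0.001. With so few libraries per group, these values cannot say whether a number stands for a shared culture or day.

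Between untreated cell types, members called higher ran from 4 to 9 and lower from 1 to 4 with 1 library left out; without a T cell library the remaining one is assumed to vary like B16F10. Directions turned for Cebpb (0.16 without TMM, 0.087 with the replicate block, and -0.72 to 1.03 with 1 library left out), Trib3 (-0.23 to 1.84), Atf4 (-1.32 to 0.75) and Ddit3 (-1.20 to 0.41); the cause was not tested beyond the gap between the T cell libraries. With the block, 5 members were higher and 1 lower. The T cell values of Gdf15 rest on 8 and 12 counts, where depth limits precision.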
